A study of Mus musculus with 6 samples.

Results

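The genes described here are those of histone-modifying and chromatin-remodelling enzymes in mouse samples labelled as chondrocytes, the cells that make and maintain cartilage. They were chosen by name alone, as rows of the deposited gene table whose symbol starts with Kat, Kdm, Kmt, Hdac, Sirt, Setd, Brd, Chd or Smarc, with names ending in -ps left out. The rule found 80 of 11955 rows, of which 78 are named for a protein and 2, Chd3os and Brd3os, carry opposite-strand names. By role there were 7 acetyltransferases (Kat), 14 methyltransferases (7 Kmt and 7 Setd), 15 deacetylases (10 Hdac and 5 Sirt), 16 demethylases (Kdm), 7 bromodomain proteins (Brd), 8 CHD proteins and 11 SWI/SNF-related proteins (Smarc). Roles follow the name stems alone, and the 80 rows are called enzymes below for short. They include the 2 opposite-strand names and subunits such as Smarcc2 and Smarce1, and not every member need act on histones. Sirt6 was not analysed here.

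RNA was sequenced in 6 libraries, 3 from mice labelled Eldr cKI and 3 from mice labelled control, in work on Eldr, a long noncoding RNA, that names the acetyltransferase Kat6a. The labels give genotype alone. The age, sex and strain of the mice, and the cells or promoter in which the allele acts, are not stated in the sources used here. Whether the libraries came from separate animals is not stated there either. The limma p-values thus reflect only spread between these samples, taken over genes of a like level, and that spread may be technical. Eldr itself was not analysed here. Values are FPKM, fragments scaled to transcript length and to the fragments mapped in each library, so levels of different genes are compared per length.

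DNA in the nucleus is wound around histone proteins, and enzymes that alter these histones set how readily a gene is read. Acetyltransferases add acetyl groups, which loosen the packing, and deacetylases take them off. Methyltransferases and demethylases write and erase methyl marks whose effect depends on the residue marked, bromodomain proteins bind acetylated histones, and CHD and SWI/SNF-related remodellers use ATP to move or eject nucleosomes. In cartilage, histone deacetylases are best known through Hdac4, which restrains the maturation of growth plate chondrocytes by holding back Runx2 and Mef2c.

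The libraries were shallow and uneven, which bears on every value below. From the smallest steps in the FPKM values, depth was estimated at 69575 to 240749 fragments in Eldr cKI and 64598 to 169049 in control, so that at the median transcript length of the 80 genes 1 fragment was worth 0.802 to 2.77 FPKM in Eldr cKI and 1.14 to 2.99 FPKM in control. Mitochondrially encoded genes held 8.51% to 43.9% of all FPKM in Eldr cKI and 29.1% to 68.3% in control, and 11 repeat-like predicted genes held 66.7% in Eldr cKI replicate 1 against 4.53% to 17.4% in the other 5 libraries. The cartilage label had little behind it in the values: 8 of 20 cartilage marker genes had a row, with summed FPKM of 2.06 to 10.7 in Eldr cKI and 5.83 to 12.8 in control. Of these, Col2a1, the main cartilage collagen, was listed at 0 in all 3 Eldr cKI libraries and in control replicate 3, and stood at 0.956 and 4.52 FPKM in control replicates 1 and 2. Prg4 went the other way, at 1.01, 0 and 6.16 FPKM in Eldr cKI and at 0 in all 3 control libraries. Of the 6 cartilage markers with a mean of at least 0.5 FPKM, the log2 fold change was negative in 4 and positive in 2. The 13 of 14 cardiomyocyte markers with a row summed to 1838, 5699 and 2418 FPKM in Eldr cKI and to 1239, 2704 and 1882 FPKM in control. The 12 photoreceptor markers summed to 0, 9.90 and 1.54 FPKM in Eldr cKI and to 1348, 1882 and 0 FPKM in control, and the 15 hepatocyte markers to 78.5, 265 and 181 FPKM in Eldr cKI and to 119, 533 and 12556 FPKM in control. The 7 of 9 keratinocyte and epithelial markers with a row summed to 10.3, 224 and 531 FPKM in Eldr cKI and to 368, 61.2 and 8.47 FPKM in control. What part these cell types and depths have in any difference below was not tested. In whole-sample RNA, fewer cells of a type and less RNA per cell cannot be told apart.

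None of the chromatin enzymes passed the test between Eldr cKI and control. Of the 80, the 76 that reached a mean of 0.5 FPKM were fitted with limma on log2(FPKM + 1), and 0 had a Benjamini-Hochberg adjusted p under 0.05, beside 3 of all 10772 rows fitted (0.0278%). At an unadjusted limma p under 0.05 the number was again 0 of 76, beside 252 rows (2.34%). Adjusted p-values of the 76 ran from 0.959 to 0.999 and unadjusted ones from 0.0937 to 0.996. Without Eldr cKI replicate 1 and control replicate 3, the libraries poorest in these transcripts, 0 passed as well, both of the enzymes and of all rows. The other 4, Hdac5, Hdac11, Sirt5 and Brd9, were too low to be fitted.

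The fold changes, Eldr cKI over control, spread widely around 0. Their median was -0.14 on the log2(FPKM + 1) scale over the 76 genes and -0.035 over all rows fitted. Eldr cKI had the lower mean on that scale for 43 genes (56.6%) and the higher for 33, beside 5508 (51.1%) and 5264 of all rows fitted. The enzymes' split turned to 30 lower and 46 higher without Eldr cKI replicate 1 and to 29 lower and 45 higher without control replicate 1. The median of all rows moved the same way, to 0.29 and 0.46. The standard errors, 0.787 to 1.45, were large beside these changes, so genes that missed the threshold are not shown to be unchanged. In this fit the standard errors came from the spread of all genes at a like level, and a gene's own spread did not enter. In 2 genes of the 76 (2.63%), Kdm5b and Smarca1, every Eldr cKI value lay below every control value, beside 2.53% of all rows fitted. In 0 of the 76 was every Eldr cKI value above every control value, beside 1.25% of all rows. In the authors' deposited table, 1 of the 80 genes (1.25%), Kdm5b, had a p under 0.05 with Eldr cKI lower, beside 1.28% of all rows, and 0 had one with Eldr cKI higher, beside 0.703%. These shares lay near or under those of the whole table.

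**Figure D1:**
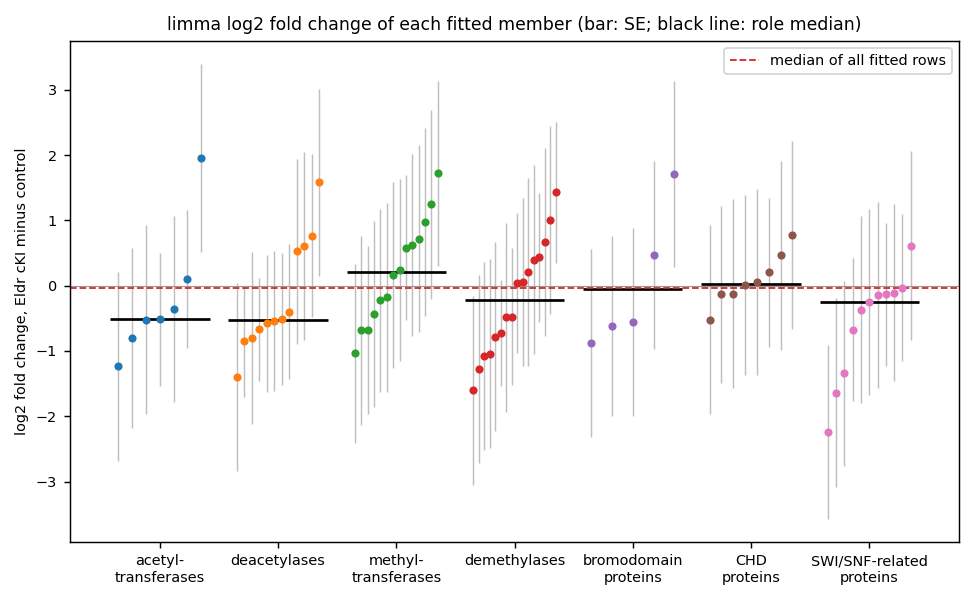
Log2 fold change, Eldr cKI over control, on the log2(FPKM + 1) scale for each fitted gene of the 7 roles, with grey bars for the SE, black lines for role medians and a dashed line for the median of all rows. The opposite-strand names and 1 gene not reported here are not drawn. Points of each role lie on both sides of 0, with role medians between -0.53 and 0.20.

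Libraries of the same genotype differed widely. The number of the 80 genes above 0 FPKM was 42, 47 and 69 in Eldr cKI replicates 1, 2 and 3 and 71, 51 and 41 in control replicates 1, 2 and 3. Summed over the 80 genes, FPKM came to 210, 471 and 833 in Eldr cKI and to 730, 547 and 237 in control. Each group thus held a library rich in these transcripts, Eldr cKI replicate 3 and control replicate 1, and a poor one, Eldr cKI replicate 1 and control replicate 3. The 2 rich libraries were also those with the most rows of any kind above 0, 8390 in Eldr cKI replicate 3 and 8969 in control replicate 1, and the deepest by the estimate above. Together they held the highest value of 51 genes, 25 in Eldr cKI replicate 3 and 26 in control replicate 1. Relative to the summed FPKM of 12 housekeeping genes, the 80 genes stood at 0.271, 0.247 and 0.276 in Eldr cKI and at 0.310, 0.443 and 0.156 in control, and the groups overlapped there too.

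**Figure D2:**
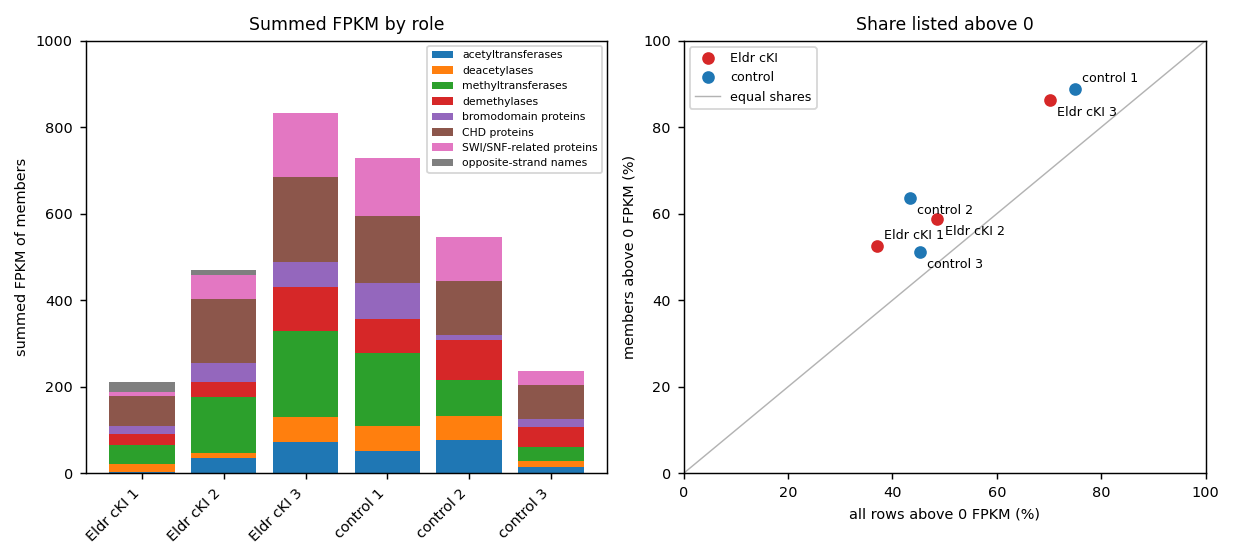
Summed FPKM of the chromatin enzymes in each library, stacked by role, and the share of them above 0 FPKM beside the share of all rows above 0. Eldr cKI replicate 3 (833 FPKM) and control replicate 1 (730 FPKM) stand highest, and Eldr cKI replicate 1 (210 FPKM) and control replicate 3 (237 FPKM) lowest.

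The chromatin enzymes were seen more often than most rows. Of the 80, 21 (26.3%) were above 0 in all 6 libraries, against 1550 of 11955 rows (13.0%). Their transcripts were also longer, with a median longest transcript of 5179.5 bases against 3464 bases over all rows, and a longer transcript gives more fragments at the same FPKM. Among transcripts over 5000 bases the shares were 18 of 44 (40.9%) for the enzymes and 622 of 2912 (21.4%) for all rows, and among those of 5000 bases or less they were 3 of 36 (8.33%) and 928 of 9026 (10.3%). The difference in share was thus seen among the long transcripts and not among the short ones. Values of 0 made up 33.1% of the enzymes' values and 46.8% of all values. Of the 80, 7 (8.75%) were listed at 0 in all 3 Eldr cKI libraries and 3 (3.75%) in all 3 control libraries, beside 1980 (16.6%) and 1394 (11.7%) of all rows.

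**Figure D3:**
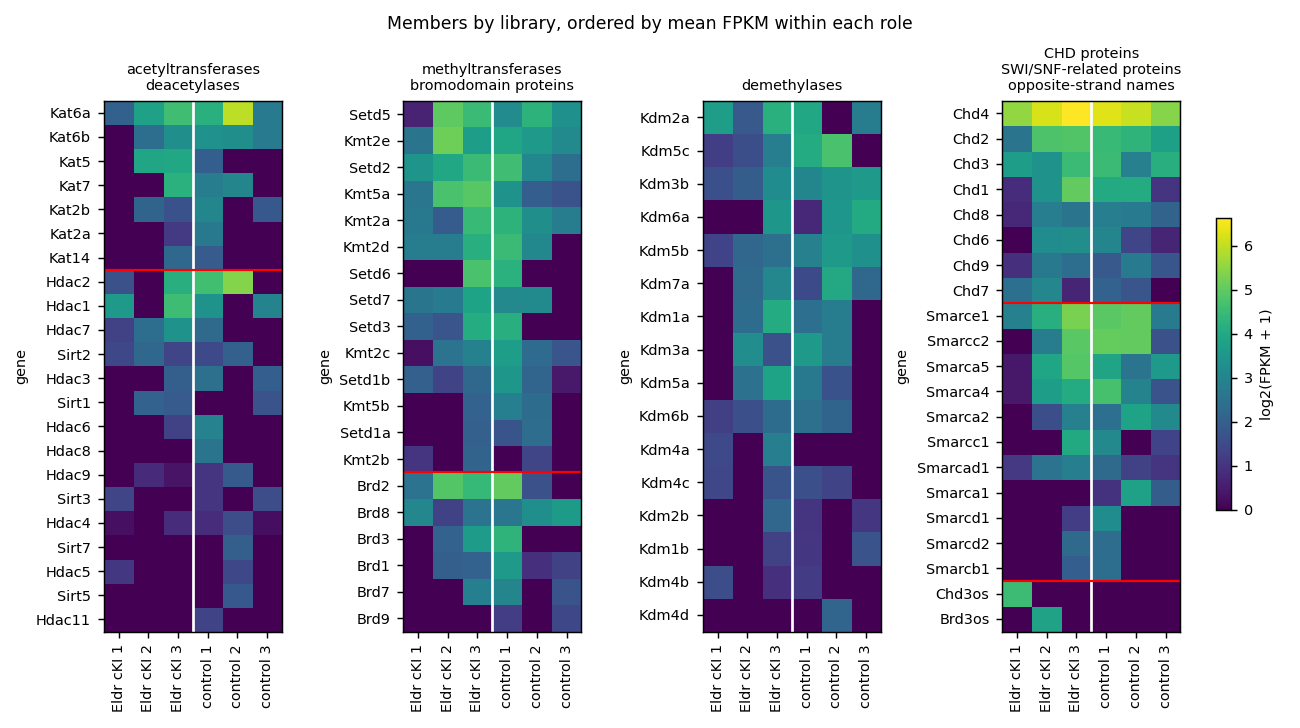
FPKM of the chromatin genes, 1 left out, in each of the 6 libraries on a log2(FPKM + 1) colour scale, grouped by role, with Eldr cKI libraries left of control libraries. The CHD rows are filled in nearly every library, with 4.17% of values at 0, against 52.2% for the deacetylase rows.

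Chd4, the ATPase of the NuRD complex, which couples remodelling to deacetylation, carries the highest level of the set, and Kdm5b and Smarca1 are the genes whose groups did not overlap. Their promoters are shown for this reason: the 250 bases before the start that RefSeq gives on GRCm38.p6, with each CpG in capitals. The Chd4 stretch lies at chr6:125095731-125095980 on the plus strand, that of Kdm5b at chr1:134559928-134560177 on the plus strand and that of Smarca1 at chrX:47892614-47892863 on the minus strand. By the span of its row, Smarca1 starts at 47892974 on this strand, so its whole stretch lies within the gene. The Kdm5b stretch ends just within its row, which starts at 134560171.
Chd4: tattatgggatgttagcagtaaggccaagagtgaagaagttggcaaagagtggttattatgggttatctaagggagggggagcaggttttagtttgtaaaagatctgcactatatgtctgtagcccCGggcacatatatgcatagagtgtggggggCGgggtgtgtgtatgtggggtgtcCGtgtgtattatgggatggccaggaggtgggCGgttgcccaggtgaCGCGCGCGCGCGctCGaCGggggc
Kdm5b: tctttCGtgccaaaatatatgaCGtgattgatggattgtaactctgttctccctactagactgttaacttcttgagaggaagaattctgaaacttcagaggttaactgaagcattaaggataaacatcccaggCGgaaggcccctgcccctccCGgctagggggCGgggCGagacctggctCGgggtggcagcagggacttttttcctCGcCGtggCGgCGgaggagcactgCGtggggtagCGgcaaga
Smarca1: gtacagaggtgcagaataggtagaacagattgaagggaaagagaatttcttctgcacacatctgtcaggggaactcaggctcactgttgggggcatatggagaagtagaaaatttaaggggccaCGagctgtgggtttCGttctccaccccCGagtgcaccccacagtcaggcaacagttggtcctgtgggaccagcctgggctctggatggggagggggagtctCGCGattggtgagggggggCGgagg
The Chd4 stretch holds 12 CpG and that of Kdm5b 13, with ratios of observed to expected CpG of 0.842 and 0.718, and in Chd4 they gather near the start. The Smarca1 stretch holds 6, with a ratio of 0.330, in bases past the start of its row.

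CpG-rich promoters were common across the set. Of the 80 genes, 61 had an entry in the RefSeq promoter table, and in windows of 300 bases (250 before and 50 after the start) 54 of these (88.5%) had a CpG ratio of at least 0.6, beside 6291 of 9168 rows with an entry (68.6%). The medians of that ratio were 0.839 for the enzymes and 0.751 for all rows, and those of GC content were 62.0% and 60.3%. On either strand, the TATA letters TATAAA were found in 4.92% of the enzymes' windows and 8.68% of all, and CCAAT in 34.4% and 38.9%. The letters CCGGAAG, the core bound by ETS factors, were found in 18.0% of the enzymes' windows and 17.3% of all, and AAGATGG, the core bound by YY1, in 11.5% and 7.30%. Smarca1 has the only one of these matches in the 3 stretches printed, a CCAAT. These are letter matches and not measured sites. Among the 19 genes without an entry are Brd8, Chd1, Chd2, Chd3, Chd3os, Chd7, Hdac1, Hdac3, Kat6a, Kdm2a, Kdm3b, Kdm4b, Kdm5a, Kdm6b, Kmt2b, Kmt2e, Setd1b and Smarce1.

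Among the acetyltransferases, Kat6a was the highest on average and the only one above 0 in every library. Kat6a (ENSMUSG00000031540.13, chr8:22859535-22943259, plus strand, GRCm38) encodes a MYST-family acetyltransferase that marks histone H3. It stood at 3.16, 12.9 and 23.3 FPKM in Eldr cKI and at 17.6, 61.7 and 5.48 FPKM in control, with means of 13.1 ± 10.1 FPKM in Eldr cKI and 28.2 ± 29.6 FPKM in control (SD, n = 3 each). The groups overlapped: control replicate 2 was far above all others, and control replicate 3 lay under 2 of the Eldr cKI libraries. Its log2 fold change was -0.81 with an SE of 1.38 (95% interval -3.50 to 1.89, limma adjusted p = 0.999), and without control replicate 2 it was 0.033. The FPKM of Kat6a stood for an estimated 3.00, 8.20 and 51.2 fragments in Eldr cKI and 27.0, 36.3 and 4.24 in control. Among the 80 genes it ranked 19, 12 and 9 in the Eldr cKI libraries and 14, 2 and 17 in the control libraries, and it made up 1.50%, 2.75% and 2.80% of their summed FPKM in Eldr cKI and 2.41%, 11.3% and 2.31% in control. Its place among the 80 genes was thus highest in control replicate 2 as well.

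Kat6b, the paralogue of Kat6a in the same complexes, stood at 0, 4.28 and 8.89 FPKM in Eldr cKI and at 9.23, 8.83 and 5.79 FPKM in control (log2 fold change -1.24, SE 1.44, limma adjusted p = 0.959). Only Eldr cKI replicate 3 reached the control range. Kat5, known as Tip60, the catalytic subunit of the NuA4 complex, had the opposite sign, with 0, 14.2 and 14.4 FPKM in Eldr cKI and 2.97, 0 and 0 FPKM in control. Its log2 fold change was 1.96 with an SE of 1.44 (limma adjusted p = 0.959), and the gene was picked out here after its values were seen. Kat2a and Kat2b, the GCN5 and PCAF acetyltransferases, Kat7 and Kat14 were each at 0 in 2 to 4 libraries, with no level above 17.8 FPKM. For the role as a whole the median log2 fold change was -0.51, with 5 of 7 genes lower in Eldr cKI and 2 higher, none past the threshold. It turned to 0.19, with 3 lower and 4 higher, without Eldr cKI replicate 1 and to 0.13 without control replicate 1. Reads of Kat2b, Kat6b, Smarca5 and Smarce1 could be shared with named pseudogenes, so their levels are uncertain.

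The methyltransferases were the best detected of the writing and erasing enzymes, with 7 of 14 above 0 in all 6 libraries and a median change of 0.20 on the log2 scale, 8 higher and 6 lower in Eldr cKI and none past the threshold. That median ranged from -0.45 (without control replicate 3, with 5 higher and 9 lower) to 0.88 (without Eldr cKI replicate 1) with 1 library left out. Kmt5a, also called SET8, puts the first methyl group on lysine 20 of histone H4. It stood at 5.02, 25.5 and 29.2 FPKM in Eldr cKI and at 9.64, 2.93 and 2.21 FPKM in control, with means of 19.9 ± 13.0 FPKM in Eldr cKI and 4.93 ± 4.10 FPKM in control (SD, n = 3 each). Eldr cKI replicates 2 and 3 were above every control, and Eldr cKI replicate 1 lay between controls. The log2 fold change of 1.72 (SE 1.42, 95% interval -1.06 to 4.50) did not pass (limma adjusted p = 0.959).

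The MLL enzymes of the Kmt2 group write methyl marks on lysine 4 of histone H3 at promoters and enhancers. Kmt2a, the founding member, rearranged in leukaemia, stood at 5.45, 2.83 and 20.99 FPKM in Eldr cKI and at 18.5, 8.91 and 5.93 FPKM in control (log2 fold change -0.43, SE 1.42, limma adjusted p = 0.999). Kmt2c, which acts at enhancers, stood at 0.200, 4.79 and 6.53 FPKM in Eldr cKI and at 12.1, 3.99 and 2.34 FPKM in control. Kmt2e, which carries a SET domain but is not known to methylate histones, stood at 4.81, 35.1 and 11.9 FPKM in Eldr cKI and at 14.2, 11.04 and 7.92 FPKM in control. All 3 overlapped between the groups, with fold changes of -0.69 for Kmt2c and 0.24 for Kmt2e.

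Setd2 adds the methyl groups on lysine 36 of histone H3 that follow transcribing polymerase. It stood at 9.83, 14.6 and 21.9 FPKM in Eldr cKI and at 23.0, 7.54 and 4.25 FPKM in control, a log2 fold change of 0.62 (SE 1.39, limma adjusted p = 0.999). Setd5, a SET-domain gene linked to neurodevelopment, stood at 0.559, 30.5 and 21.9 FPKM in Eldr cKI and at 8.24, 18.3 and 9.08 FPKM in control. Its fold change of -0.23 turned to 1.01 without Eldr cKI replicate 1 and control replicate 3. Setd1b, the catalytic subunit of a COMPASS complex, stood at 3.09, 1.57 and 3.62 FPKM in Eldr cKI and at 10.4, 3.50 and 0.373 FPKM in control, a fold change of -0.18. For these genes, too, the groups overlapped.

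The deacetylases were the least detected: 0 of 15 were above 0 in every library and 52.2% of their values were 0. Listed at 0 in all 3 Eldr cKI libraries were 4 of the 15 (Hdac8, Hdac11, Sirt5 and Sirt7), beside 16.6% of all rows. Each of these was above 0 in 1 control library only, at an estimated 0.401 to 1.88 fragments. Hdac1 and Hdac2 are close paralogues and the catalytic core of the Sin3, NuRD and CoREST corepressors. Hdac1 stood at 11.02, 0 and 22.8 FPKM in Eldr cKI and at 9.34, 0 and 6.84 FPKM in control, a log2 fold change of 0.61 (SE 1.45, limma adjusted p = 0.999). Hdac2 stood at 2.14, 0 and 16.9 FPKM in Eldr cKI and at 23.6, 41.1 and 0 FPKM in control, a log2 fold change of -1.40 (SE 1.44, limma adjusted p = 0.959). With 1 library left out, that of Hdac2 ranged from -3.07 to -0.37. Each of the pair had libraries at 0 in both groups. Hdac4, named above for growth plate cartilage, never passed 1.94 FPKM in any library. Sirt1, an NAD-dependent deacetylase much studied in ageing, stood at 0, 3.21 and 2.74 FPKM in Eldr cKI and at 0, 0 and 2.21 FPKM in control (log2 fold change 0.77, SE 1.24, limma adjusted p = 0.999). The median log2 fold change of the 12 fitted deacetylases was -0.53, with 8 lower and 4 higher in Eldr cKI, and none passed. That median ranged from -0.69 to -0.33 with 1 library left out, and was -0.25 with quantile normalization, with 7 lower and 5 higher. Summed FPKM of acetyltransferases was 0.165, 2.91 and 1.21 times that of deacetylases in Eldr cKI and 0.865, 1.38 and 0.976 times in control.

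Kdm5b was the only demethylase whose groups did not overlap in the FPKM as deposited. After mitochondrial and predicted genes were left out and the rest rescaled, those of Kdm3b did not overlap either. Kdm5b removes methyl groups from lysine 4 of histone H3 and so opposes the Kmt2 enzymes. Kdm5b (ENSMUSG00000042207.17, chr1:134560171-134635285, plus strand, GRCm38) stood at 1.50, 3.51 and 4.45 FPKM in Eldr cKI and at 6.44, 10.8 and 8.98 FPKM in control, with means of 3.15 ± 1.51 FPKM in Eldr cKI and 8.75 ± 2.20 FPKM in control (SD, n = 3 each). Each Eldr cKI library was below the lowest control. The log2 fold change of -1.28 had an SE of 1.44 (95% interval -4.10 to 1.55, limma adjusted p = 0.959). That SE rests on all genes at a like level and is not the spread of Kdm5b itself. For this row the authors' deposited table gives a p of 0.0307 and a q of 0.704. The levels stood for an estimated 1.36, 2.13 and 9.33 fragments in Eldr cKI and 9.49, 6.09 and 6.64 in control, so the counting error alone is large. With quantile normalization the groups overlapped. Kdm5a and Kdm5c, its paralogues, overlapped between groups.

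Kdm3b, which acts on lysine 9 of histone H3, was the other demethylase above 0 everywhere, with 2.06, 2.86 and 8.25 FPKM in Eldr cKI and 7.21, 9.76 and 10.7 FPKM in control. Eldr cKI replicate 3 lay above control replicate 1, and the log2 fold change was -1.08 (SE 1.44, limma adjusted p = 0.993). Kdm6b, also called JMJD3, which removes the repressive mark on lysine 27 of histone H3, stood at 1.39, 2.07 and 4.10 FPKM in Eldr cKI and at 4.49, 3.36 and 0 FPKM in control (log2 fold change 0.21, SE 1.44, limma adjusted p = 0.999). Its groups overlapped and control replicate 3 was at 0. Kdm2a, which acts on lysine 36 of histone H3 at CpG islands, stood at 11.9, 2.60 and 17.4 FPKM in Eldr cKI and at 14.6, 0 and 5.84 FPKM in control. The highest demethylase on average apart from it was Kdm5c, with 1.35, 2.04 and 6.14 FPKM in Eldr cKI and 15.7, 25.6 and 0 FPKM in control. Kdm4a, which acts on lysines 9 and 36 of histone H3, was listed at 0 in all 3 control libraries and stood at 1.75, 0 and 6.08 FPKM in Eldr cKI (limma adjusted p = 0.959). The 16 demethylases split evenly, 8 lower and 8 higher in Eldr cKI, with a median of -0.22 and none past the threshold. The split was 12 lower and 2 higher without Eldr cKI replicate 3 and 12 lower and 4 higher without control replicate 3, and the median turned to 0.22 without control replicate 1, to 0.11 without Eldr cKI replicate 1 and to 0.011 without Eldr cKI replicate 2. Summed FPKM of methyltransferases was 1.87, 3.76 and 1.91 times that of demethylases in Eldr cKI and 2.20, 0.869 and 0.669 times in control.

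**Figure D4:**
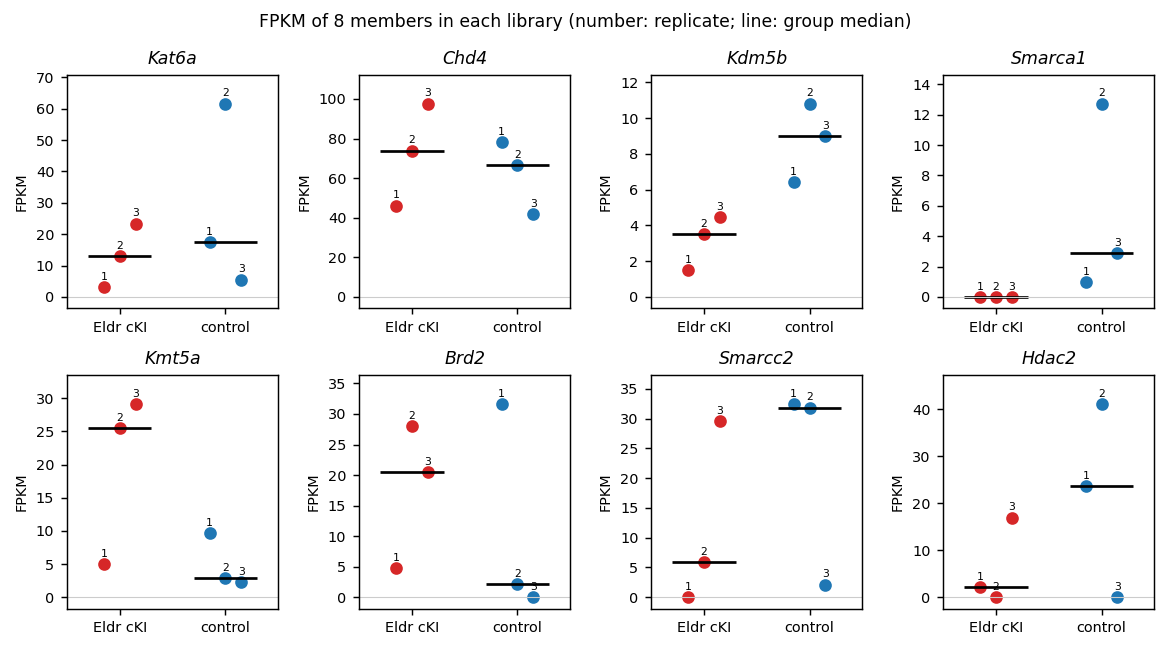
FPKM in each library for Kat6a, Chd4, Kdm5b, Smarca1, Kmt5a, Brd2, Smarcc2 and Hdac2, Eldr cKI left of control, with the group median as a line. The groups are separate for Kdm5b, with Eldr cKI at 1.50 to 4.45 FPKM and control at 6.44 to 10.8 FPKM, and for Smarca1, at 0 in Eldr cKI, and overlap for the other 6.

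Of the 7 bromodomain genes, 6 were fitted and none passed the threshold, with 3 higher and 3 lower in Eldr cKI and a median log2 fold change of -0.044. The median was 1.09 with a filter at a mean FPKM of 5, and ranged from -0.88 (without Eldr cKI replicate 3) to 1.09 (without control replicate 1) with 1 library left out. Brd2, a BET protein that binds acetylated histones at active genes, stood at 4.76, 28.0 and 20.5 FPKM in Eldr cKI and at 31.7, 2.11 and 0 FPKM in control, with the highest and the lowest value both in control (log2 fold change 1.71, SE 1.43, limma adjusted p = 0.959). Without control replicate 3 it was 0.60, and without control replicate 1 it was 3.12. Brd8, a subunit of the NuA4 complex of Kat5, was the bromodomain gene above 0 in every library, at 7.35, 1.43 and 4.79 FPKM in Eldr cKI and 5.11, 8.80 and 11.1 FPKM in control (log2 fold change -0.87, SE 1.44). Brd9, of a SWI/SNF complex variant, was listed at 0 in all 3 Eldr cKI libraries and stood at 1.28, 0 and 1.71 FPKM in control.

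The CHD proteins were the best detected role, with 6 of 8 above 0 in every library and 4.17% of values at 0. Chd4 (ENSMUSG00000063870.12, chr6:125095981-125130591, plus strand, GRCm38) had the highest FPKM of the 80 genes in each of the 6 libraries. It stood at 46.1, 73.9 and 97.7 FPKM in Eldr cKI and at 78.3, 66.6 and 41.7 FPKM in control, with means of 72.6 ± 25.8 FPKM in Eldr cKI and 62.2 ± 18.7 FPKM in control (SD, n = 3 each). The groups covered nearly the same range, and the log2 fold change was 0.20 (SE 1.15, 95% interval -2.04 to 2.45, limma adjusted p = 0.999). Chd4 made up 21.9%, 15.7% and 11.7% of the FPKM of the 80 genes in Eldr cKI and 10.7%, 12.2% and 17.6% in control, with the highest shares in the libraries poorest in these genes.

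Chd2, which works at active genes, stood at 4.90, 26.6 and 27.3 FPKM in Eldr cKI and at 21.4, 18.9 and 12.7 FPKM in control (log2 fold change -0.13). Chd3, the alternative ATPase of NuRD, stood at 11.9, 9.46 and 21.8 FPKM in Eldr cKI and at 21.9, 6.40 and 16.9 FPKM in control (log2 fold change 0.0071). Chd1, which binds methylated lysine 4 of histone H3, stood at 0.806, 9.58 and 31.6 FPKM in Eldr cKI and at 15.4, 16.01 and 0.995 FPKM in control (log2 fold change 0.053). Its row runs from 15704967 to 17394898 on chromosome 17 and is longer than the Chd1 gene of GENCODE M21, which ends at 15772610, so its level may include reads from beyond Chd1. Chd8, a gene linked to autism, stood at 0.677, 6.09 and 4.83 FPKM in Eldr cKI and at 6.15, 5.60 and 3.35 FPKM in control (log2 fold change -0.52). Chd9 stood at 0.876, 5.38 and 4.25 FPKM in Eldr cKI and at 2.60, 5.70 and 2.39 FPKM in control (log2 fold change -0.13). In 5 of the 6 CHD genes seen everywhere, Chd3 being the exception, Eldr cKI replicate 1 had the lowest Eldr cKI value. The role's median was 0.030, with 5 genes higher and 3 lower in Eldr cKI and limma adjusted p-values of 0.999 throughout. Without Eldr cKI replicate 1, 8 were higher and 0 lower (median 0.54), and without Eldr cKI replicate 3, 1 was higher and 7 lower (median -0.32).

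Of the SWI/SNF-related genes, 10 of 11 had a lower mean on the log2(FPKM + 1) scale in Eldr cKI, beside 5508 of 10772 rows fitted (51.1%). The median log2 fold change was -0.25, beside -0.035 over all rows fitted, with none past the threshold. The count of these genes moved with the scaling and the libraries used: it was 8 of 11 with quantile normalization, 4 of 11 without Eldr cKI replicate 1 (median 0.35) and 3 of 10 without control replicate 1 (median 0.33). With either library left out, the median of all rows rose above 0 as well, as given above. Smarca1, or SNF2L, is the ATPase of an ISWI remodeller. Smarca1 (ENSMUSG00000031099.16, chrX:47809368-47892974, minus strand, GRCm38) was listed at 0 in all 3 Eldr cKI libraries and stood at 0.975, 12.7 and 2.86 FPKM in control. The groups did not overlap, and the limma test gave an adjusted p of 0.959 (unadjusted 0.0937, the lowest of the 76 genes). In control these levels stood for an estimated 0.791, 3.95 and 1.17 fragments. What part depth has in the values of 0 in Eldr cKI was not tested.

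Smarca4, or BRG1, the ATPase of the BAF complexes, stood at 0.374, 11.9 and 15.8 FPKM in Eldr cKI and at 24.7, 6.74 and 2.25 FPKM in control, a log2 fold change of -0.37 (SE 1.43, limma adjusted p = 0.999). Smarcc2, a scaffold subunit of the same complexes, stood at 0, 5.89 and 29.6 FPKM in Eldr cKI and at 32.5, 31.8 and 2.12 FPKM in control, a log2 fold change of -1.34 (SE 1.42, limma adjusted p = 0.959) that ranged from -2.52 to -0.055 with 1 library left out. Smarce1, a further BAF subunit and the highest of the role on average, stood at 6.54, 16.8 and 38.2 FPKM in Eldr cKI and at 29.5, 31.6 and 5.61 FPKM in control, a log2 fold change of -0.11. In each of these the groups overlapped. Smarca5, or SNF2H, the ISWI paralogue of Smarca1, stood at 0.346, 14.3 and 28.3 FPKM in Eldr cKI and at 13.6, 4.81 and 10.996 FPKM in control, a log2 fold change of -0.25. Smarcad1, which keeps heterochromatin through DNA replication, stood at 1.14, 4.71 and 6.07 FPKM in Eldr cKI and at 3.92, 1.47 and 1.00 FPKM in control and was the 1 gene of the role with a positive log2 fold change, 0.61. Both of these overlapped between the groups and were above 0 in every library.

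The rows with opposite-strand names each rested on 1 library. Chd3os stood at 22.3 FPKM in Eldr cKI replicate 1 and was listed at 0 in the other 5, and Brd3os stood at 13.1 FPKM in Eldr cKI replicate 2 and was listed at 0 in the other 5. The mouse annotation of GRCm38 (GENCODE M21) gives the identifier of the Chd3os row the name Rnf227. Both are among the 80 rows and the 76 fitted but belong to no role above.

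Genes of the same processes under other names did not pass either. Of 165 such genes on 9 lists, 148 had a row, 145 were fitted and 0 passed the threshold or had an unadjusted limma p under 0.05, with 64 higher and 81 lower in Eldr cKI and a median of -0.066 on the log2 scale. The lists cover Polycomb, other histone methylation and acetylation enzymes, COMPASS, MYST partners, corepressors, BAF, other remodellers and DNA methylation, and their medians ran from -0.49 for the DNA methylation enzymes to 0.20 for the COMPASS subunits. Psip1, or LEDGF, which tethers MLL complexes to chromatin, stood at 0, 9.97 and 38.2 FPKM in Eldr cKI and at 21.3, 88.5 and 17.1 FPKM in control (log2 fold change -2.13, SE 1.37, limma adjusted p = 0.959, and -0.67 without Eldr cKI replicate 1). Gps2, a subunit of the NCoR and SMRT corepressors that hold Hdac3, stood at 0, 8.93 and 22.8 FPKM in Eldr cKI and was listed at 0 in all 3 control libraries (limma adjusted p = 0.959). Msl3, of the MSL acetyltransferase complex, was likewise at 0 in every control library and at 0, 21.5 and 4.78 FPKM in Eldr cKI. Both of these were above 0 in the same Eldr cKI libraries, replicates 2 and 3. Of the genes with the lowest p on the other lists, Bcl7a of BAF was at 0, 6.72 and 4.34 FPKM in Eldr cKI and at 0 in control, and Naa40, an acetyltransferase of histone tails, was at 7.11 FPKM in control replicate 2 and at 0 elsewhere. Cbx6 of Polycomb, the hydroxylase Jmjd6, the remodeller Hells and the DNA demethylase Tet1 had limma adjusted p-values of 0.959 and log2 fold changes of -1.22, 1.95, -1.34 and -1.24, in that order.

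Hnrnpl, an RNA-binding protein that also regulates splicing and is named in the study beside Kat6a, stood at 14.8, 17.0 and 43.2 FPKM in Eldr cKI and at 49.4, 9.13 and 3.37 FPKM in control (log2 fold change 0.83, SE 1.36, limma adjusted p = 0.999). Without control replicate 3 it was 0.041, and without control replicate 1 it was 1.80. The row named Ihh, for Indian hedgehog, a signal of the growth plate, stood at 25.0, 12.5 and 44.7 FPKM in Eldr cKI and was listed at 0 in all 3 control libraries (limma adjusted p = 0.541). That row lies outside the annotated Ihh gene, so what it measures is uncertain. Neither passed the threshold, and Hnrnpl overlapped between the groups as Kat6a did.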

How the data were processed

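The values used are FPKM per gene in 6 libraries, as the authors deposited them. Per the file headers, each row also carries the authors' log2 fold change with its ratio, and their p-value and q-value. Per the labels' protocols, RNA was taken up in Trizol, freed of ribosomal RNA or selected on poly(A) tails (which of these each library had is not stated in the sources used here) and made into stranded libraries. The submitters' processing notes name cutadapt, HISAT2 2.0.5 and StringTie without settings. They also name the human build hg19, although identifiers and positions are those of the mouse: 75 of the 80 chromatin genes, and 11017 of 11955 rows, have exactly their GENCODE M21 span on GRCm38. Other columns of per-sample values numbered 0.

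Values were fitted as log2(FPKM + 1) with limma 3.58.1 in R 4.3.3, with a mean-variance trend, group as the only term and rows with a mean FPKM of at least 0.5 (10772 rows). P-values were adjusted over all rows fitted by the Benjamini-Hochberg method, with a threshold of 0.05. The pseudocount of 1 understates fold changes at low FPKM. With the trend, standard errors in the fit reported rest on the spread of all genes at a like level. A gene's own spread does not enter them. Counts could not be recovered: 28.8% to 52.3% of low values lay within 0.05 of whole steps, so depths and fragment numbers are rough and cover counting error only. The fit was also run on simulated data with known changes. There the libraries of a group differed only in depth and random spread, so the run does not give the power of the test in these data. Tables were made with pandas 2.3.3 and numpy 2.4.6 in Python 3.11.15, intervals with scipy 1.17.1, and plots with matplotlib 3.10.9.

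The members and lists were chosen with earlier results of these data known. Genes named are Kat6a, Kat6b, Sirt1, Sirt6, Hdac1, Hdac2, Kdm6b, Kmt2a, Smarca4, Hnrnpl and Ihh, members past the threshold or at an unadjusted p under 0.05, members without overlap between groups, the 2 highest of each role, those above 0 in all libraries, those at 0 in 1 group and above 0 in at least 2 libraries of the other, and the lowest p of each other list. A gene that the rule also takes is not reported here, though counts, sums and medians include it. Any other gene named was chosen after its values were seen. The alternatives, 16 in all, changed the pseudocount, the filter, the trend, the scaling, the weights, the replicate block or the libraries used. Leaving out Eldr cKI replicate 1 and control replicate 3 together was chosen after seeing the data.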

Additional observations from a re-analysis of the deposited data

How the results depend on the processing

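None of the chromatin enzymes passed the threshold under any of the 16 alternatives, and the adjusted p of Kat6a ranged from 0.842 to 1.00. Counts over all rows moved more: against 3 in the fit reported, 8 passed with a pseudocount of 0.1, 1 with a filter at a mean FPKM of 5, 0 without the trend, 1 with quantile normalization, 17 with array quality weights, 0 with Eldr cKI replicate 1 and control replicate 3 left out together and 0 to 12 with 1 library left out. Deviations of same-numbered libraries from their group means had correlations of -0.17, 0.031 and -0.15. With 3 libraries per group these values cannot show whether the numbers pair libraries. With a replicate block 5 rows and 0 of the enzymes passed. At an unadjusted limma p under 0.05 stood 3 of the 76 rows with array weights, beside 762 of 10772 rows (7.07%). These were Kat5, Smarca1 and Brd3os, the last an opposite-strand name and not an enzyme. With 1 library left out the number was 0 to 1 (all rows 1.53% to 3.45%). Genes without overlap numbered 2 of 76 as reported (all rows 3.78%), 1 of 35 with the filter at 5 (all rows 4.36%), 5 of 76 with quantile normalization (all rows 6.94%) and 5 of 77 after mitochondrial and predicted genes were left out and the rest rescaled (all rows 4.96%). Kmt5a was higher in Eldr cKI without overlap under quantile normalization and rescaling, whereas Kdm5b and Smarca1 overlapped under quantile normalization. That step gives values of 0 a level that depends on the library, which bears on Smarca1, at 0 in all 3 Eldr cKI libraries. Under quantile normalization Kat6b and Kmt2c were lower in Eldr cKI without overlap, and Hdac7 was higher. The median fold change was -1.17 for the deacetylases with a pseudocount of 0.1 and -1.04 for the demethylases with the filter at 5. Leaving out 1 library moved the median of the enzymes between -0.67 (without Eldr cKI replicate 3) and 0.34 (without control replicate 1), together with that of all rows, and the difference from it stayed between -0.29 and -0.040.

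The following log2 fold changes turned in sign. Quantile normalization gave 0.013 for Chd2, 0.082 for Setd5 and 0.050 for Smarca5. Rescaling gave 0.12 for Chd2, 0.011 for Chd9, 0.069 for Setd1b and 0.16 for Smarce1, and a pseudocount of 0.1 gave 0.049 for Setd1b. Array weights gave 0.21 for Chd2, -0.025 for Chd3, 0.094 for Chd9, -0.20 for Hdac1, 0.41 for Setd5, 0.21 for Smarca4 and 0.31 for Smarca5. With both doubtful libraries left out the values were 0.40 for Chd2, 0.24 for Chd9, -0.31 for Kdm6b, 1.01 for Setd5, 0.064 for Smarca4 and 1.20 for Smarca5. With 1 library left out, Chd1 ranged from -0.97 to 1.17, Chd2 from -0.52 to 0.61, Chd3 from -0.48 to 0.34, Chd4 from -0.057 to 0.49, Chd8 from -0.92 to 0.12, Chd9 from -0.47 to 0.42, Hdac1 from -0.45 to 1.97, Kat6a from -1.60 to 0.033 and Kdm2a from -0.12 to 1.86. Kdm6b ranged from -0.55 to 0.68, Kmt2a from -1.15 to 0.11, Kmt2c from -1.19 to 0.13, Kmt2e from -0.44 to 0.87, Setd1b from -0.97 to 0.55, Setd5 from -1.03 to 1.14, Smarca4 from -1.08 to 0.77, Smarca5 from -1.15 to 1.07 and Smarce1 from -0.86 to 0.50. Named enzymes that kept their sign could still move: Kat6b ranged from -1.94 to -0.29, Kdm5c from -2.51 to -0.14, Kdm3b from -1.55 to -0.76, Kmt5a from 1.30 to 2.46, Setd2 from 0.13 to 1.23, Sirt1 from 0.39 to 1.43, Brd8 from -1.26 to -0.37 and Smarcad1 from 0.27 to 1.13. The cause of these turns was not tested. At the estimated depths a gene of a few FPKM rests on a handful of fragments, which limits what could be detected.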
